A study of Homo sapiens with 2 samples.

Results

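The Fanconi and homologous recombination genes were followed in 2 Ewing sarcoma cell lines by single-cell RNA-seq. The set held 31 genes of the 33538 in the tables. Of these, 10 were taken by their FANC symbols and the other 21 were named partners in the same repair route. All 31 were found in the tables and none lay under 1 CPM (UMIs of a gene scaled to 1000000 UMIs of the library) in either line, so all 31 entered the comparisons.

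The Fanconi pathway repairs DNA strands that are covalently cross-linked to each other. A core complex (FANCA, FANCB, FANCC, FANCE, FANCF, FANCG, FANCL and FANCM) acts with the conjugating enzyme UBE2T to ubiquitinate the FANCD2 and FANCI pair, and nucleases held by SLX4 then unhook the lesion. The resulting break is trimmed by MRE11, RAD50, NBN, RBBP8 (CtIP) and EXO1. BRCA1, BARD1, PALB2 and BRCA2 then prepare the trimmed strand for pairing with its copy, which RAD51B, RAD51C, RAD51D, XRCC2, XRCC3, RAD51AP1 and the RAD54 motors assist. Homologous recombination copies from the sister chromatid and so is active in S and G2, and loss of the pathway sensitises cells to cross-linking drugs and PARP inhibitors.

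CHLA9 and TC71 are established lines of Ewing sarcoma, a bone and soft tissue tumour driven by a fusion of EWSR1 with an ETS gene. No drug or genetic change was applied in either line. CHLA9 was grown in IMDM with 20% serum and an insulin, transferrin and selenite supplement, and TC71 in RPMI-1640 with 10% serum. Each line gave 1 library of 3′ tagged transcripts, and the CHLA9 library alone was sequenced again at greater depth on another instrument, so line, medium and sequencing cannot be told apart.

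A cell was kept if it reached 5000 UMIs and 2000 detected genes while its mitochondrial share stayed within 15%, which left 4524 of 5077 barcodes in CHLA9 and 1729 of 8468 in TC71. Most TC71 barcodes (5869) fell under 5000 UMIs. The kept cells held 174975302 and 58355173 UMIs, with medians of 34656 and 33370 UMIs per cell. Of 16 barcodes common to both libraries, 3 were kept in each. All 7 Ewing sarcoma markers were present in both lines, from NKX2-2 (9.89 CPM in CHLA9 and 34.6 in TC71) to CCND1 (2511 and 1451 CPM). Of 8 markers of other cell types, CD3E and HBB were at 0 and the summed level of the 8 was 18.4 CPM in CHLA9 and 5.50 CPM in TC71. The sums were led by the fibroblast markers DCN (13.6 and 2.86 CPM) and LUM (4.76 and 1.29 CPM). DCN lay above NKX2-2 in CHLA9. The epithelial marker EPCAM was at 0.05 and 1.25 CPM. With 1 library per line there was no replicate and no test. Every interval given is a 95% interval that covers counting error only.

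The sequences before the start sites of the genes were taken first. At least 1.5-fold higher in S than G1 cells, as described below, were 18 of the 31 genes in CHLA9 and 8 in TC71. E2F factors are known activators of S phase genes, and their part in the levels of these genes was not tested. RefSeq windows (GRCh38.p14, 250 bases before to 50 after a start) were matched for 28 of the 31 genes, in 36 windows. FANCI, RAD54B and NBN had no entry. Each window was searched on both strands for the E2F letters TTTCCCGC, TTTCGCGC, TTTGCCGC and TTTGGCGC. These stood in 5 of the 28 genes (17.9%), against 6.74% of 10042 matched genes that were measured in the libraries and 3.99% of all 27305 genes with a window. The 5 genes are shown from 200 bases before the start to the start, or to the end of the last match where it lies past the start, with the matches in capitals. They lie at chr16:89816648-89816847 (minus strand), chr9:95317710-95317909 (minus), chr3:10026237-10026442 (plus), chr7:152676113-152676341 (minus) and chr1:241848004-241848215 (plus).
FANCA: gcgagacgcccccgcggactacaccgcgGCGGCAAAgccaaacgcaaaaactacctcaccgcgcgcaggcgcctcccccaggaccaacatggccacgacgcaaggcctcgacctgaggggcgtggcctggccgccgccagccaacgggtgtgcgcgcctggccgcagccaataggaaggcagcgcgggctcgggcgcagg
FANCC: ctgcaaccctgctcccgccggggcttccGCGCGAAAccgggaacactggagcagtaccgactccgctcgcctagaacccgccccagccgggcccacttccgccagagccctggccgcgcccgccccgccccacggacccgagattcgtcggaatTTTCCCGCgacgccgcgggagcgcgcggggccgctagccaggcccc
FANCD2: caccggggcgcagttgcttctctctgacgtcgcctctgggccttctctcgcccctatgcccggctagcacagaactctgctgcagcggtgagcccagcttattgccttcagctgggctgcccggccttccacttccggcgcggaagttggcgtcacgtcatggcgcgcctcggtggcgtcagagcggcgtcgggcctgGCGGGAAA
XRCC2: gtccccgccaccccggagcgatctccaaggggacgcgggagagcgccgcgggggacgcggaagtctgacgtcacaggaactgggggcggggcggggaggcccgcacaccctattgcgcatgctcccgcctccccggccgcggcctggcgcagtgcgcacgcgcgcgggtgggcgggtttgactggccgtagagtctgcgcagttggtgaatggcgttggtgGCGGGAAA
EXO1: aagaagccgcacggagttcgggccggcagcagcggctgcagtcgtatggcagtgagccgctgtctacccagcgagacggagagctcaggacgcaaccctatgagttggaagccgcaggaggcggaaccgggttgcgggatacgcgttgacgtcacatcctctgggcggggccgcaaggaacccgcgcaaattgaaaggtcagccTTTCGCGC
Matches on the opposite strand read as GCGGCAAA, GCGCGAAA or GCGGGAAA. The 5-letter word CCAAT, bound by NF-Y, stood in 12 of the 28 genes (42.9%), against 43.3% of the measured genes. The cell cycle words TTTGAA and TTCGAA stood in 3 of the 28 (10.7%: FANCC, UBE2T and BRIP1), against 15.1%. A match is a description of letters, not of a bound site, and no match says only that these letters are not in the window.

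Levels were given as CPM, UMIs summed over the kept cells of a line. The 31 genes ranged from 7.24 CPM (RAD51B) to 222 CPM (UBE2T) in CHLA9, with a median of 38.7 CPM. In TC71 they ranged from 5.43 CPM (SLX4) to 166 CPM (UBE2T), with a median of 34.8 CPM. The 3′ tags were not scaled by gene length, so each gene was compared between lines and phases and not with other genes. The order of the genes was alike in both lines (Spearman rho = 0.89 across the 31 genes, against 0.87 across all genes measured, as descriptions of 2 libraries).

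**Figure D1:**
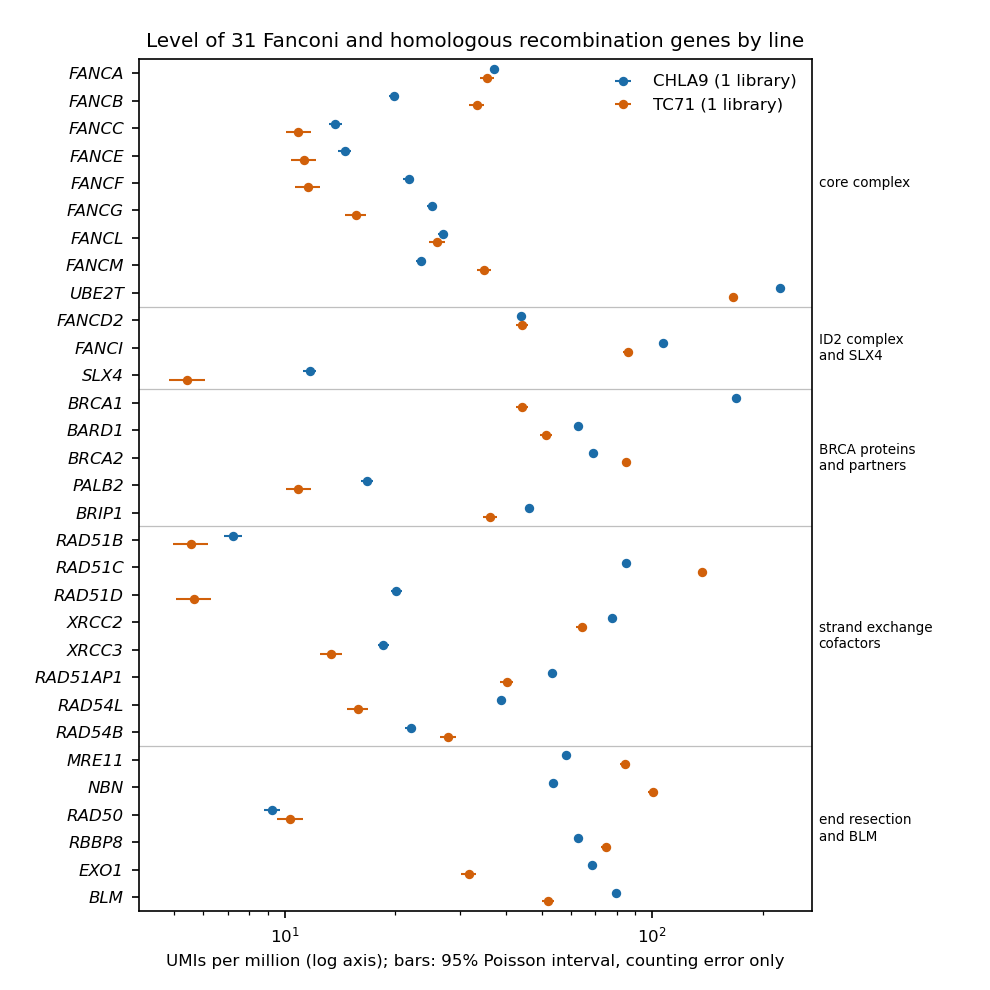
CPM of each of the 31 genes (log axis) in CHLA9 (blue) and TC71 (orange), grouped by role, with 95% Poisson intervals. BRCA1 and RAD51D stand furthest apart (169 against 44.2 CPM, and 20.1 against 5.67 CPM), while FANCA, FANCL and FANCD2 nearly coincide.

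Summed over the 31 genes, the level was 1587 CPM (1581 to 1593) in CHLA9 and 1369 CPM (1360 to 1379) in TC71. Without BRCA1 the sums were 1417 and 1325 CPM. BRCA1 thus held 10.7% of these UMIs in CHLA9 and 3.23% in TC71.

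A gene was called different when its CPM differed at least 2-fold and the interval of the ratio left out equality. By that rule 5 of the 31 genes were higher in CHLA9 (BRCA1, RAD51D, RAD54L, EXO1 and SLX4), and none was higher in TC71. Over all 13552 genes measured, 19.8% were higher in CHLA9 and 13.9% in TC71, so the count in CHLA9 lay near the background. The median log2 difference (TC71 minus CHLA9) was -0.33 over the 31 genes and -0.20 over all genes measured. Relative to that general shift the split was 3 genes higher in CHLA9 (BRCA1, RAD51D and RAD54L) and 1 higher in TC71 (NBN, the sensor subunit of the MRE11 complex). The share of all genes was not taken for this split. The members were mixed in direction: 19 were lower in TC71 beyond counting error, 9 were higher, and FANCA, FANCL and FANCD2 did not differ beyond it. These counts by counting error alone have no share over all genes beside them. At any size, 21 of the 31 had the higher CPM in CHLA9, against 59.0% of all genes measured. Relative to the general shift, FANCA, FANCL and FANCD2 were higher in TC71, by log2 differences of 0.15, 0.15 and 0.21.

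Among the 9 genes of the core complex and UBE2T, none passed 2-fold. FANCF, the adaptor of the complex, was at 21.7 CPM in CHLA9 and 11.6 in TC71 (log2 difference -0.91, interval -1.03 to -0.79). FANCG, which binds FANCA, was at 25.2 and 15.6 CPM (-0.69). FANCB, part of the catalytic module with FANCL, was higher in TC71, at 19.8 CPM in CHLA9 and 33.3 in TC71 (0.75). So was the DNA translocase FANCM, at 23.5 and 34.8 CPM (0.57). FANCA, the subunit most often mutated in Fanconi anaemia, was at 37.0 CPM (36.1 to 37.9) in CHLA9 and 35.6 (34.1 to 37.2) in TC71. FANCL, the ubiquitin ligase, was at 26.9 and 26.0 CPM. UBE2T was at 222 and 166 CPM (-0.42), FANCE at 14.6 and 11.3 CPM (-0.37) and FANCC at 13.7 and 10.9 CPM (-0.33).

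Of the substrate pair of the core complex, FANCD2 was close to equal in the lines and FANCI was lower in TC71. FANCD2 was at 44.03 CPM (43.1 to 45.0) in CHLA9 and 44.2 (42.5 to 46.0) in TC71, a log2 difference of 0.01. FANCI was at 107 and 85.8 CPM (-0.32). SLX4, the scaffold for the unhooking nucleases, was lower in TC71 at 5.43 CPM (317 UMIs) than in CHLA9 at 11.7 CPM (2044 UMIs), a log2 difference of -1.10 (-1.28 to -0.93). Relative to the shift over all genes the SLX4 difference was -0.90, under 2-fold.

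BRCA1, at chr17:43044295-43170245, differed most of all 31 genes. It was at 169 CPM (167 to 171, 29641 UMIs) in CHLA9 and 44.2 CPM (42.5 to 45.9, 2578 UMIs) in TC71, 3.83-fold higher in CHLA9 (log2 difference -1.94, interval -2.00 to -1.88). Its obligate partner BARD1 differed far less, at 62.8 and 51.4 CPM (-0.29). BRCA2, which acts on the trimmed strand, was higher in TC71 at 84.9 CPM than in CHLA9 at 69.1 CPM (0.30). PALB2, which bridges BRCA1 and BRCA2, was at 16.7 and 10.9 CPM (-0.62), and the helicase BRIP1 at 46.2 and 36.1 CPM (-0.36). An annotated transcript, AC060780.1, shares exon sequence with BRCA1 on the same strand and was at 21.4 and 11.2 CPM, so part of the BRCA1 reads may have been assigned elsewhere in both lines.

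Of the genes that assist strand exchange, RAD51D at chr17:35092221-35121522 was 3.55-fold higher in CHLA9, at 20.1 CPM (3522 UMIs) against 5.67 CPM (331 UMIs), a log2 difference of -1.83 (-1.99 to -1.66). RAD51C, which is found in complexes with RAD51B and with XRCC3, went the other way, at 85.0 CPM in CHLA9 and 136 CPM in TC71 (0.68, interval 0.64 to 0.72). RAD51B, XRCC2 and XRCC3 differed by -0.38, -0.28 and -0.47 on the log2 scale. The readthrough gene AC004223.3, which overlaps RAD51D on the same strand, was at 0 UMIs in both lines. The motor protein RAD54L at chr1:46246461-46278480 was at 38.7 CPM in CHLA9 and 15.8 in TC71 (-1.29, interval -1.39 to -1.19), while its relative RAD54B was at 22.0 and 27.9 CPM (0.34). RAD51AP1, a cofactor of strand exchange, was at 53.3 and 40.2 CPM (-0.41).

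The end-resection genes went both ways. The subunits of the MRE11 complex, which makes the initial cut, were all higher in TC71: MRE11 at 58.3 and 84.1 CPM (0.53), NBN at 53.7 and 100.2 CPM (0.90, interval 0.85 to 0.95) and RAD50 at 9.24 and 10.4 CPM (0.17). RBBP8, its cofactor, was also higher in TC71 at 74.6 CPM against 62.9 (0.25). The long-range nuclease EXO1 at chr1:241847967-241895148 was lower in TC71, at 31.7 CPM against 68.7 in CHLA9 (-1.12, interval -1.19 to -1.05), and so was the helicase BLM, at 52.1 CPM against 79.7 (-0.61). Relative to the shift over all genes the EXO1 difference was -0.92, under 2-fold. RAD50 shares exon sequence on its strand with AC116366.3 (1.15 and 0.84 CPM) and RAD54B with FSBP (1.10 and 0.60 CPM).

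In thinned cells, each reduced at random to 5000 UMIs, the share of cells with a UMI followed the CPM for most genes. The exceptions were RAD51B (2.81% of CHLA9 and 3.18% of TC71 cells) and FANCD2 (19.0% and 18.6%), whose intervals overlapped between the lines. BRCA1 was seen in 52.2% of CHLA9 cells (50.7 to 53.6) and 18.0% of TC71 cells (16.2 to 19.9), and in 94.1% and 69.2% without thinning. RAD51D was seen in 8.78% and 2.60% of thinned cells, RAD54L in 16.9% and 7.29%, EXO1 in 26.3% and 15.2%, and SLX4 in 5.28% and 2.37%. NBN went the other way, in 22.7% and 38.8%. The leukocyte marker PTPRC, which these cells should lack, held 9 UMIs over all CHLA9 cells and 5 over all TC71 cells. The variance of the thinned counts over cells lay close to the mean for every gene, with a ratio of variance to mean of 0.954 to 1.23 in both lines.

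The next question was when in the cell cycle these genes were transcribed. Cells were assigned to G1, S or G2M by the Seurat scores. The members on its S list (EXO1, BLM, BRIP1 and RAD51AP1) and 5 other pathway genes on it were left out, so that no gene set its own phase. CHLA9 had 990 G1, 1788 S and 1746 G2M cells, and TC71 had 278, 824 and 627. Phases were less distinct in TC71, where 23.9% of cells lay within 0.05 of a score limit, against 12.9% in CHLA9. The S phase histone gene HIST1H4C, in neither list, was at 995 CPM in the TC71 cells called G1, against 250 CPM in those of CHLA9. The ratio of S to G1 was 1.54 for HIST1H4C in TC71 and 8.17 in CHLA9, and for cyclin E1 (CCNE1) 1.83 and 4.54. Median UMIs rose from G1 to S to G2M cells (29231, 34992 and 40971 in CHLA9, and 29850, 33000 and 37649 in TC71), and all levels were taken as CPM to remove this. The part of the G1 assignments in the smaller phase ratios of TC71 was not tested.

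The 31 genes were highest in S as a group. Their summed level in G1, S and G2M cells was 960, 1970 and 1504 CPM in CHLA9, and 1129, 1470 and 1337 CPM in TC71. In CHLA9 the sum was 2.05-fold higher in S than in G1 (2.03 to 2.08), and in TC71 1.30-fold (1.27 to 1.33). At least 1.5-fold higher in S than G1, with the interval above equality, were 18 of the 31 genes in CHLA9, against 5.97% of all genes measured there. In TC71 this held for 8 of the 31, against 1.8%. With phases scored on cells thinned to 5000 UMIs the counts were 18 in CHLA9 (4.13% of all genes) and 3 in TC71 (1.01%). No gene of the 31 was lower by the same limit. The median ratio of S to G1 was 1.76 over the 31 genes in CHLA9 (0.994 over all genes) and 1.34 in TC71 (1.03 over all genes).

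In G2M, 15 of the 31 were at least 1.5-fold above G1 in CHLA9, against 6.2% of all genes measured. With phases scored at 5000 UMIs the count was 7 (FANCG, UBE2T, FANCD2, FANCI, SLX4, RAD51AP1 and RAD54L), against 4.92%, and 8 genes fell under the limit (FANCB, BRCA1, BARD1, BRCA2, BRIP1, RAD54B, EXO1 and BLM). In TC71 only FANCM, SLX4 and RAD51B passed, 3 of the 31, against 5.92% of all genes, so the G2M count in TC71 lay near the background. It was 7 when the complete Seurat lists scored the phases, for which no share of all genes was taken. With phases at 5000 UMIs the count was 1 (SLX4), against 4.7%. The median ratio of G2M to G1 was 1.49 in CHLA9 and 1.20 in TC71. Across the 31 genes the S to G1 ratios of the lines were alike in order (Spearman rho = 0.63, as a description). The ratio was the larger in CHLA9 for 27 of the 31, and the share of all genes was not taken for this count.

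**Figure D2:**
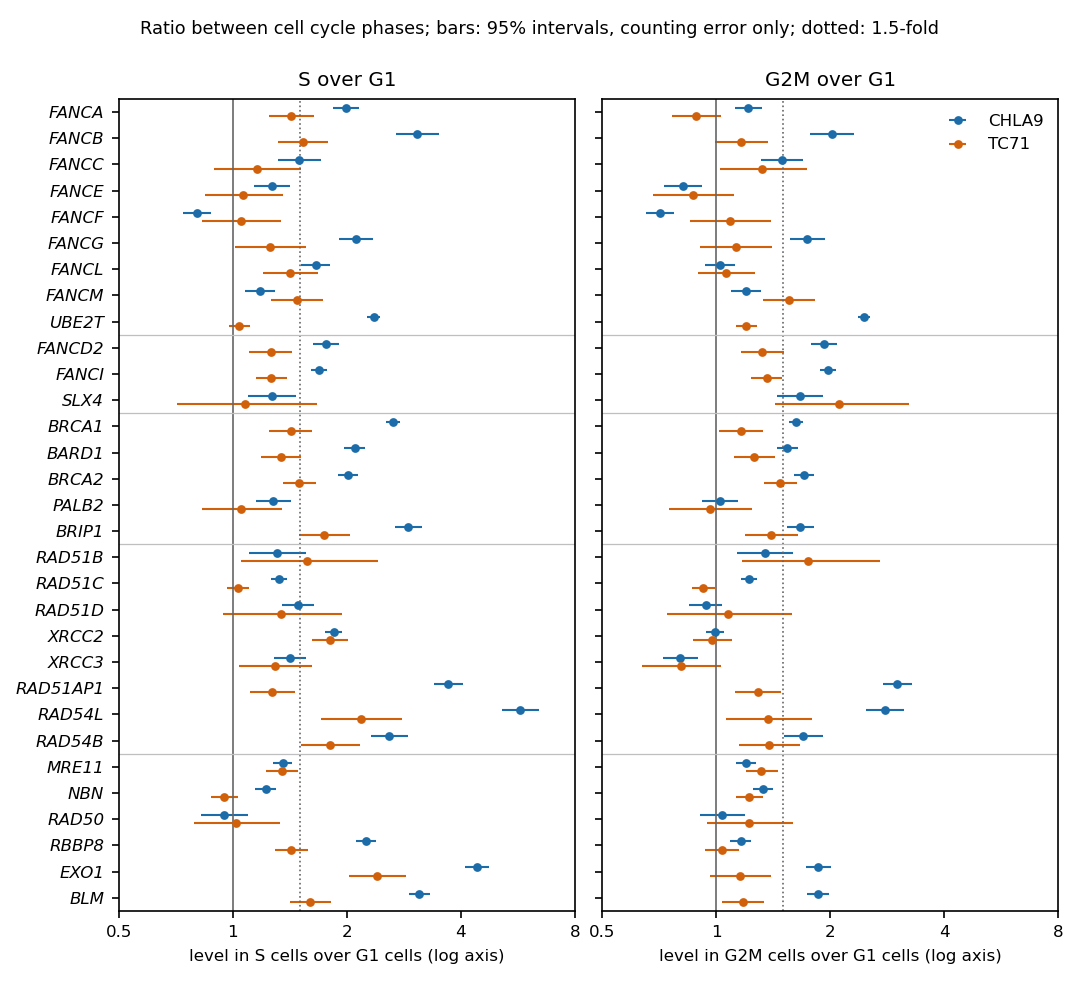
Level in S (left) and G2M (right) cells over G1 cells for each gene (log axes), CHLA9 in blue and TC71 in orange, with 95% intervals and a dotted line at 1.5-fold. RAD54L and EXO1 reach 5.73 and 4.40 in S cells of CHLA9 and 2.18 and 2.40 in TC71, and most TC71 points lie nearer to 1.

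The genes past the S limit in both lines were FANCB, BRIP1, XRCC2, RAD54L, RAD54B, EXO1 and BLM. In TC71 this call rested on the scoring: XRCC2, RAD54L and EXO1 stayed past the limit with phases scored at 5000 UMIs, and BRIP1, XRCC2 and EXO1 with every gene left in the scores. RAD54L had the largest ratio, at 10.7, 61.5 and 30.0 CPM in G1, S and G2M cells of CHLA9 (S to G1 5.73, interval 5.12 to 6.42) and 9.32, 20.3 and 12.8 CPM in TC71 (2.18, interval 1.71 to 2.80). EXO1 was at 25.6, 113 and 47.6 CPM in CHLA9 (4.40, interval 4.09 to 4.74) and 18.5, 44.4 and 21.4 CPM in TC71 (2.40, interval 2.02 to 2.86). BRIP1 was 2.91-fold (2.69 to 3.15) and 1.74-fold (1.497 to 2.04) higher in S than G1. These 3 genes had the highest S to G1 ratios by the mean log2 of the lines, though BRIP1 was behind RAD51AP1, BLM and FANCB in CHLA9 and behind RAD54B and XRCC2 in TC71. BLM, the helicase that dissolves joint molecules, was 3.11-fold and 1.60-fold higher in S, and FANCB 3.07-fold and 1.53-fold. Of the 7 genes past the S limit in both lines, XRCC2 had the closest ratios, 1.85 (1.75 to 1.95) in CHLA9 and 1.80 (1.62 to 2.01) in TC71. It fell back to its G1 level in G2M (ratios of 0.995 and 0.976). MRE11, under the limit, had an S to G1 ratio of 1.35 in each line.

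BRCA1 was at 88.8, 235 and 144 CPM in G1, S and G2M cells of CHLA9, and at 35.1, 49.8 and 40.8 CPM in TC71. Its S to G1 ratio was 2.65 (2.54 to 2.76) in CHLA9 and 1.42 (1.25 to 1.62) in TC71. BARD1 and BRCA2 were 2.099-fold and 2.01-fold higher in S than G1 in CHLA9, and 1.34-fold and 1.499-fold in TC71, where BRCA2 lay just under the limit. PALB2 changed less, with ratios of 1.28 and 1.05.

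The substrates of the core complex were not highest in the cells called S. FANCI was at 63.4, 107 and 125 CPM in G1, S and G2M cells of CHLA9, and 67.9, 85.7 and 92.2 CPM in TC71, with the highest of the 3 phases being G2M in both lines. FANCD2 was at 26.0, 45.7 and 49.9 CPM in CHLA9 and 35.5, 44.6 and 46.9 CPM in TC71. FANCD2 was higher in G2M than S beyond counting error in CHLA9, but not in TC71. In 8 finer bins of the cycle order, described below, both genes peaked in bin 5 of each line, where 89.4% (CHLA9) and 79.2% (TC71) of cells were called S: FANCI at 143 and 104 CPM, FANCD2 at 55.8 and 51.03 CPM. UBE2T, SLX4 and NBN, with FANCI, were higher in G2M than S beyond counting error in both lines. SLX4 was the clearest case, at 8.40, 10.6 and 13.9 CPM in CHLA9 and 3.68, 3.96 and 7.77 CPM in TC71. Its G2M to G1 ratios were 1.66 (1.45 to 1.91) and 2.11 (1.43 to 3.22), the latter on 30 UMIs in G1 cells. In contrast, 22 genes in CHLA9 and 14 in TC71 were higher in S than in G2M beyond counting error. FANCA was among them in both lines. It was at 25.1, 49.9 and 30.5 CPM in CHLA9 (S to G1 1.99, interval 1.84 to 2.15). In TC71 FANCA was at 30.9, 44.1 and 27.3 CPM (1.43, interval 1.24 to 1.64). The share of all genes was not taken for the counts of S against G2M.

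RAD51AP1 had unlike phase ratios in the lines. It was at 18.3, 67.7 and 54.8 CPM in G1, S and G2M cells of CHLA9, and at 32.4, 41.2 and 41.7 CPM in TC71. In CHLA9 its ratio to G1 was 3.70 (3.39 to 4.05) for S cells and 2.999 (2.75 to 3.28) for G2M cells, and in TC71 the same ratios were 1.27 and 1.29. RAD51AP1, RAD54L and SLX4 had the highest G2M to G1 ratios by the mean log2 of the lines. In CHLA9 UBE2T (2.46), FANCB (2.02), FANCI, FANCD2, EXO1, BLM, FANCG, BRCA2, RAD54B and BRIP1 were above SLX4 (1.66). In TC71 RAD51B (1.75), FANCM (1.56), BRCA2, BRIP1 and RAD54B were above RAD54L (1.37) and RAD51AP1. FANCI, FANCC, FANCD2 and MRE11 were also above RAD51AP1 there. RAD51C moved in opposite directions in G2M, with 1.22 (1.16 to 1.28) in CHLA9 and 0.925 (0.863 to 0.992) in TC71.

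Past no phase limit in either line were 10 genes: FANCC, FANCE, FANCF, PALB2, RAD51C, RAD51D, XRCC3, MRE11, NBN and RAD50. The 3 lowest S to G1 ratios by the mean log2 of the lines were those of FANCF, RAD50 and NBN. FANCF, an intronless gene, was at 27.2, 21.9 and 19.3 CPM in G1, S and G2M cells of CHLA9 (S to G1 0.805, interval 0.739 to 0.877) and at 10.9, 11.5 and 11.9 CPM in TC71 (1.05, interval 0.827 to 1.34). RAD50 was at 9.27, 8.79 and 9.62 CPM in CHLA9 and 9.45, 9.65 and 11.5 CPM in TC71, with S to G1 ratios of 0.949 (0.823 to 1.10) and 1.02 (0.789 to 1.33). NBN had ratios of 1.22 (1.15 to 1.30) and 0.948 (0.873 to 1.03). The whole MRE11 complex was thus under the S limit in both lines, while the resection genes EXO1, in both lines, and RBBP8, in CHLA9 (2.24, and 1.43 in TC71), were above it.

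Set against the promoter letters shown above, the E2F words stood in 4 of the 16 matched genes past the S limit in CHLA9 (FANCA, FANCD2, XRCC2 and EXO1) and in 1 of the other 12 (FANCC). FANCC was at 9.78, 14.6 and 14.6 CPM in G1, S and G2M cells of CHLA9. Its S to G1 ratio was 1.498 in CHLA9, just under the limit, and 1.16 in TC71. Its G2M to G1 ratios were 1.49 and 1.32. The E2F words were not counted by the S calls of TC71, and a link between the words and the phase of a gene was not tested. CCAAT stood in 7 of the 16 and 5 of the 12.

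Cells of each line were next placed in 8 bins of equal cell number by the angle of their phase scores, counted from the border of G2M and G1, and CPM was computed per bin. CCNE1 peaked in bin 4 and the mitotic genes CCNB1 and PLK1 in bin 7 of both lines. Bin 8 held 98.4% G2M cells in CHLA9 and 76.9% in TC71, where the other 23.1% were called G1. The summed level rose from 826 CPM in bin 1 to 2185 CPM in bin 5 of CHLA9 and fell to 1184 CPM in bin 8. In TC71 it rose from 1087 to 1605 CPM in bin 5 and fell to 1218 CPM. Bins 4 and 5 held the peaks of 24 genes in CHLA9 and 23 in TC71. The peak was in the same bin in both lines for 17 genes, in neighbouring bins for 12 and further apart for FANCC and FANCF. The median ratio of highest to lowest bin was 2.32 in CHLA9 and 1.74 in TC71 over the 31 genes, and 12.7 and 3.45 over the 6 reference genes left out of the scores (CCNE1, E2F1, HIST1H4C, CCNA2, CCNB1 and PLK1).

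**Figure D3:**
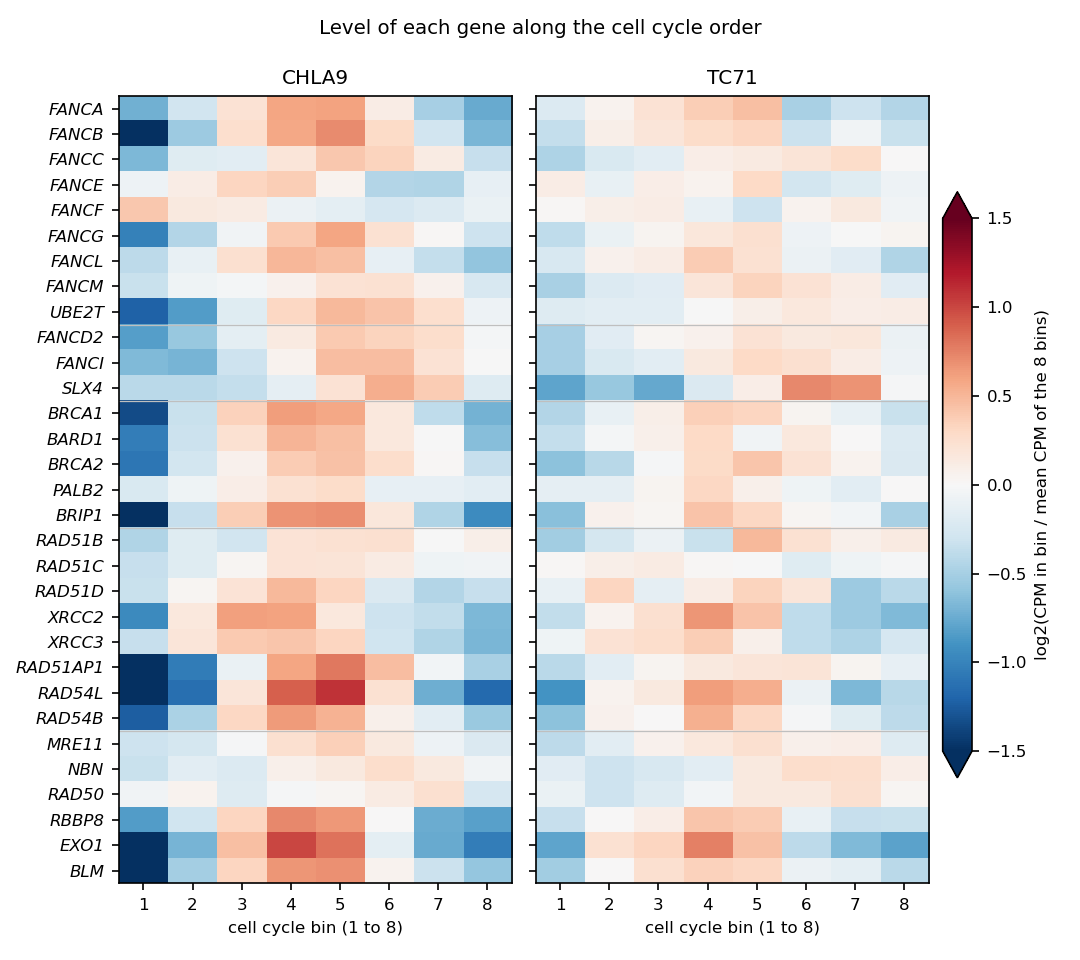
Log2 of CPM in each of 8 cell cycle bins over the mean of the 8 bins, for each gene in CHLA9 (left) and TC71 (right). Most genes are highest in bins 4 and 5, SLX4 in bin 6 of both lines, and colours are paler in TC71.

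Within the order, XRCC2 was early, with its peak in bin 3 of CHLA9 (119 CPM, against 40.3 in bin 1) and bin 4 of TC71 (103 CPM). EXO1 peaked in bin 4 of both lines, at 136 and 53.7 CPM. RAD54L rose 10.0-fold from 7.88 CPM in bin 1 to 78.9 CPM in bin 5 of CHLA9, and 2.87-fold from 8.47 to 24.3 CPM in bin 4 of TC71. BRCA1 peaked in bin 4 of both lines, at 256 and 56.3 CPM. SLX4 and NBN peaked in bin 6 of both lines, and FANCF in bin 1 of CHLA9 (29.3 CPM).

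Because the share of cells in each phase differed (G1 21.9% and 16.1%, S 39.5% and 47.7%, in CHLA9 and TC71), the lines were compared again within each phase, a comparison chosen after the data were seen. BRCA1 and RAD51D were higher in CHLA9 in all 3 phases. The BRCA1 log2 difference was -1.34 in G1, -2.24 in S and -1.82 in G2M, and that of RAD51D was -1.86, -2.01 and -1.66. RAD54L and EXO1 were called among S cells (-1.60 and -1.34) and again among G2M cells (-1.23 and -1.15) but differed by -0.20 (-0.58 to 0.16) and -0.47 (-0.73 to -0.21) in G1. SLX4 was called in G1 and S (-1.19 and -1.43). In G1 cells FANCF was also 2-fold higher in CHLA9 (-1.32), and FANCB (1.52) and NBN (1.11) were 2-fold higher in TC71. UBE2T and RAD51AP1, lower in TC71 over all cells (-0.42 and -0.41), were higher there in G1 cells, by 0.55 (0.46 to 0.65) and 0.83 (0.61 to 1.04).

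**Figure D4:**
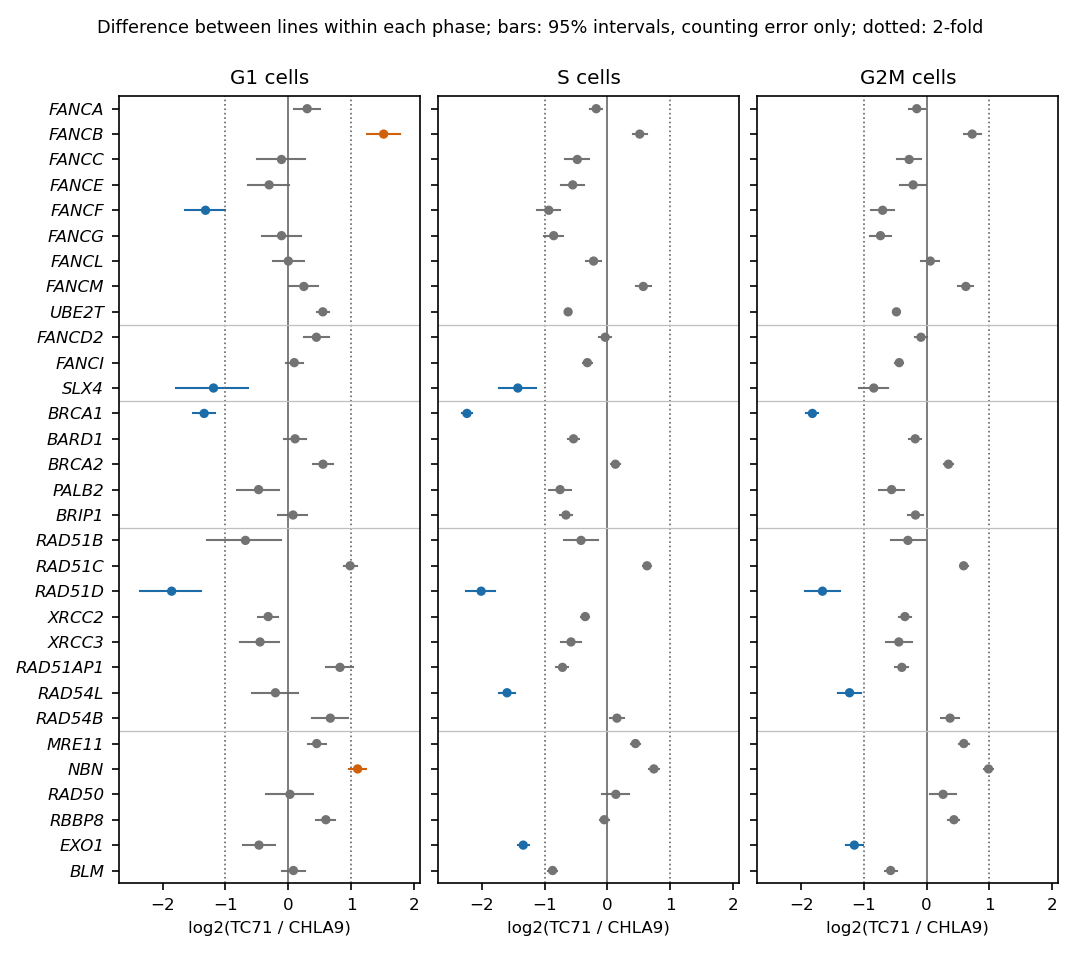
Log2 ratio of CPM in TC71 over CHLA9 for each gene, within G1, S and G2M cells, with 95% intervals and dotted lines at 2-fold. Blue marks genes called higher in CHLA9 and orange those called higher in TC71, which are FANCB and NBN in G1 cells.

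The counts were thus 4 higher in CHLA9 and 2 in TC71 within G1 (21.8% and 14.7% of all genes measured), 5 and 0 within S (21% and 13.7%), and 4 and 0 within G2M (18.2% and 14.7%). The median log2 difference over the 31 genes was 0.08 in G1 cells, -0.48 in S cells and -0.28 in G2M cells, beside -0.24, -0.22 and -0.16 over all genes measured. The sign of the median in G1 was opposite to that over all cells. TC71 cells called G1 also held more HIST1H4C (995 against 250 CPM), CCNA2 (86.5 against 23.6 CPM) and CCNB1 (231 against 128 CPM) than those of CHLA9, and the part of this in the G1 values was not tested.

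Single cells carried several of these transcripts at once. At 5000 UMIs per cell, the median cell had a UMI of 6 of the 31 genes in CHLA9 (4 in G1, 7 in S and 6 in G2M) and of 5 in TC71 (5, 6 and 5). Without thinning the medians were 21 and 19. The most in any thinned cell was 18 in CHLA9 and 14 in TC71. Cells with none numbered 18 of 4524 in CHLA9 (0.398%, 0.236 to 0.628) and 6 of 1729 in TC71 (0.347%, 0.127 to 0.754). In CHLA9 16 of the 18 were in G1, while in TC71 5 of the 6 were in S and 1 in G1. The thinned cell held 7.74 ± 3.89 UMIs of the 31 genes in CHLA9 and 6.75 ± 2.89 in TC71 (mean ± SD over cells, which are not replicates).

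**Figure D5:**
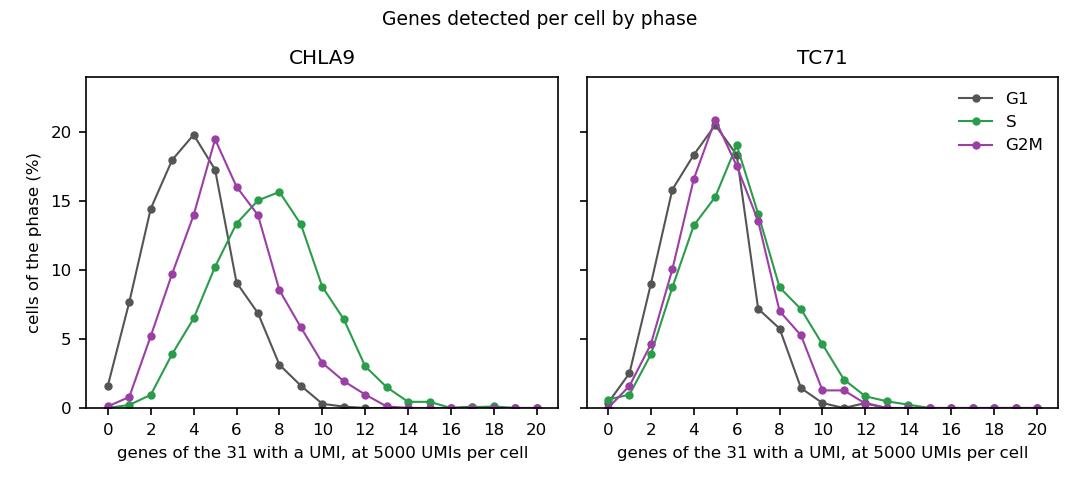
Share of cells (percent of the phase) by the number of the 31 genes with a UMI, after thinning each cell to 5000 UMIs, for G1, S and G2M cells of each line. The CHLA9 curves lie further apart, with medians of 4, 7 and 6, than the TC71 curves, with medians of 5, 6 and 5.

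The wider pathway was read from 51 further genes (Fanconi-associated proteins, nucleases, RPA and checkpoint kinases), of which 50 reached 1 CPM. By the 2-fold rule 7 were higher in CHLA9 (19.8% of all genes measured) and 1 in TC71 (13.9%), and their median log2 difference was -0.32. DCLRE1A (SNM1A), a nuclease that digests past cross-links, was at 6.46 CPM in CHLA9 and 83.7 CPM in TC71. It was 13.0-fold higher in TC71 (log2 difference 3.70, interval 3.60 to 3.79). TOP3A, the topoisomerase that works with BLM, was at 48.4 and 11.2 CPM (-2.11). RAD52, a strand annealing protein, was at 4.94 and 1.39 CPM (-1.83), ZSWIM7, of the Shu complex, at 80.4 and 23.0 CPM (-1.80), UHRF1 at 140 and 51.6 CPM (-1.44), and RPA1, which coats single-stranded DNA, at 122 and 48.9 CPM (-1.32). FAAP24 and RMI2 lay just past 2-fold (-1.01 each).

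Of the same 50 genes, 18 were past the S limit in CHLA9 and 6 in TC71, and 5 and 3 past the G2M limit, beside the backgrounds given above. POLQ, the polymerase of an alternative end-joining route, had S to G1 ratios of 4.44 and 1.61.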

How the data were processed

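RNA was measured as 3′ transcript tags (10x Chromium, v3.1 chemistry) in 2 libraries, 1 per cell line. The authors deposited raw UMI counts per gene and barcode, made with Cell Ranger 3.1.0 against hg38 per the labels. The 31 genes and all gene lists were chosen with earlier results of these data known. Cells were filtered at 5000 UMIs, 2000 detected genes and a mitochondrial share of 15%. Doublets were not called; an alternative left out the top 5% of cells by UMIs. The counts were summed per line or phase and divided by the total. CPM have exact Poisson intervals, ratios exact conditional binomial intervals and shares Clopper-Pearson intervals, all at 95%, for counting error only. A gene was measured at 1 CPM or more in a line. Calls needed a 2-fold ratio between lines or 1.5-fold between phases, with the interval beyond equality. No test was run, since each line had 1 library.

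Phases came from Seurat 5.3.0 (R 4.3.3) on genes seen in at least 10 cells, with 33 S and 52 G2M genes. AURKA, meant as a reference gene for the cycle order, is on the G2M list and was left out. Bins followed the angle of the centred scores. Each of the 31 genes was given its level in both lines. Chosen to be described singly were genes past 2-fold between the lines, FANCA, FANCD2 and FANCI, and genes opposite between the lines. So were the 3 highest and 3 lowest S to G1 ratios and 3 highest G2M to G1 ratios (mean log2 of the lines). Up to 5 further pathway genes per direction were also chosen. Phase values of other members were named after they were seen. Of the 7 pathway genes past 2-fold in CHLA9, FAAP24 and RMI2 were named beyond that rule, as was POLQ, after their values were seen. A further gene of the wider pathway is not reported here. Positions and exon overlaps came from GENCODE 44 on the same build, matched by gene identifier for all 31 genes. Overlapping genes share reads, so BRCA1, RAD51D, RAD54B and RAD50 counts are uncertain. The count rule was tested on simulated data. Analyses used Python 3.11.15, numpy 2.4.6, scipy 1.17.1, pandas 2.3.3 and matplotlib 3.10.9.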

Additional observations from a re-analysis of the deposited data

Results flagged for a closer look

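RAD51C, a cofactor of strand exchange, was flagged because its G2M to G1 difference took opposite signs in CHLA9 and TC71, past the counting intervals. The log2 ratio was 0.28 in CHLA9 and -0.11 in TC71, and the difference between them was not tested, since each line had 1 library. RAD51C was also among the genes higher in TC71 (136 against 85.0 CPM).

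The barcodes left out of the comparisons carried the same transcripts. In TC71, the 5869 barcodes under 5000 UMIs held these genes at 1109 CPM in sum (all 31 genes had a UMI), and the 601 barcodes over 15% mitochondrial UMIs held them at 1223 CPM, beside 1369 CPM in the kept cells. Those under 2000 genes held them at 747 CPM. In CHLA9 the barcodes under 5000 UMIs, under 2000 genes and over 15% mitochondrial UMIs held them at 1003, 1121 and 1486 CPM, beside 1587 CPM in the kept cells.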

How the results depend on the processing

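No paired analysis was possible because there was only 1 library for a line. No gene called 2-fold between the lines over all cells changed sign under an alternative, but 2 others, UBE2T and RAD51AP1, changed sign beyond counting error in G1 cells. The median log2 difference (TC71 minus CHLA9) was -0.33, moved to -0.13 with median centring, and in comparisons within phases chosen after seeing the data was -0.48 in S cells and 0.077 in G1 cells, a reversed sign. Genes higher in CHLA9 went from 5 to 3 (median-centred) and 9 (1.5-fold limit). Genes higher in TC71 went from 0 to 1 (median-centred), 3 (1.5-fold) and 2 (within G1 cells). Among the alternatives, shares over all genes were taken only with phases at 5000 UMIs and for the lines within phases. The counts under the other alternatives have no background and cannot be set against that of all genes. The median number of genes detected per cell rose from 6 to 10 in CHLA9 and from 5 to 9 in TC71 at 10000 UMIs, and to 21 and 19 without thinning. The count past the S limit in CHLA9 was 18 and stayed between 13 and 20 over 10 alternatives. In TC71 it was 8 and fell to 4 when phases were scored on all genes, 3 when scored at 5000 UMIs and 2 at a 2-fold limit. The G2M count in CHLA9 was 15 and fell to 7 with phases at 5000 UMIs and 4 at a 2-fold limit. In TC71 it was 3, and became 7 with the full lists (members kept), 1 with phases at 5000 UMIs and 1 at a 2-fold limit. The cause was not tested. Depth limits the TC71 ratios of low genes: SLX4, RAD51B and RAD51D rest on 317, 324 and 331 UMIs there. Their phase ratios in TC71 rest on only 30, 29 and 39 UMIs in G1 cells.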
